A study of Mus musculus with 24 samples.

Results

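H3K27ac peak lists of control mouse limb buds of embryonic days E11.5 and E12.5 were compared across all peaks, gene starts, genes and gene-free regions. The members were all peaks of both lists, 36045 at E11.5 and 32821 at E12.5, together 68866 of the 134222 peaks in the 4 lists of the series. The groups are labelled Control E11.5 and Control E12.5, both embryonic mouse limb buds, precipitated with an H3K27ac antibody (ab4729, Abcam). The other lists came from Sox9-deficient limb buds, since the series asks how far early cartilage chromatin depends on SOX9. Strain, genotype of the control embryos, number of embryos pooled, and whether fore limbs, hind limbs or both were taken are not stated by the labels. Each stage had 1 library and no replicate, so no difference was tested and every value describes these libraries. Read depth is unknown, and it bears on how many peaks a list holds and how wide they are.

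H3K27ac is acetylation of histone H3 at lysine 27, found at active promoters and at active enhancers, the distal elements that raise transcription of a gene from a distance. Between these stages the mouse limb bud passes from patterned mesenchyme to condensations that begin to lay down cartilage, while tendon and connective tissue lineages appear and digits take shape. In the limb, genes of the HoxA and HoxD clusters with high paralog numbers act in distal segments, Tbx5 marks the fore limb, and Tbx4 and Pitx1 mark the hind limb. The tissue label was checked against limb mesenchyme genes. Prrx1, a homeobox gene of limb mesenchyme, had 10.97 kb of peaks within its body and 20 kb around it at E11.5 against 13.9 kb at E12.5. Hand2, a regulator of the posterior limb, had 27.8 and 31.4 kb, and Lmx1b, which sets dorsal identity, had 27.5 and 37.2 kb. Of 20 genes of tissues other than limb, 3 had a peak at the start in both lists and 17 in neither.

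The E12.5 list had fewer but wider peaks, with a median width of 1707 bp against 1141 bp at E11.5. For regions, gene starts and genes, the 32821 highest-scored peaks of each list were therefore used, which covered 50.1 Mb at E11.5 and 66.7 Mb at E12.5. Equal numbers did not equalise covered length, and E12.5 still covered 1.33 times as much. Peaks of at least 10 kb numbered 41 at E11.5 and 142 at E12.5. The score is the authors' own value per peak, with no unit given, and it was used only to rank peaks within a list. It holds many ties, which were ordered by width, the widest first. A score of 3100 was shared by 1588 peaks at E11.5, at ranks 135 to 1722, and by 1325 at E12.5, at ranks 113 to 1437, so a rank in those ranges is an order by width.

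Strong peaks were shared, and most of the weakest were not. Among the 10000 highest-scored peaks of each list, 9955 of E11.5 and 9910 of E12.5 were overlapped by at least 1 bp by some peak of the other list. In the highest decile by score, 99.6% of E11.5 peaks (Wilson 95% interval 99.3 to 99.8) had an overlap at E12.5. In the lowest decile the share was 32.5%. In the other direction the shares were 99.97% (99.8 to 99.99) and 30.4%. These intervals cover counting error over peaks only, not variation between embryos or libraries.

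**Figure D1:**
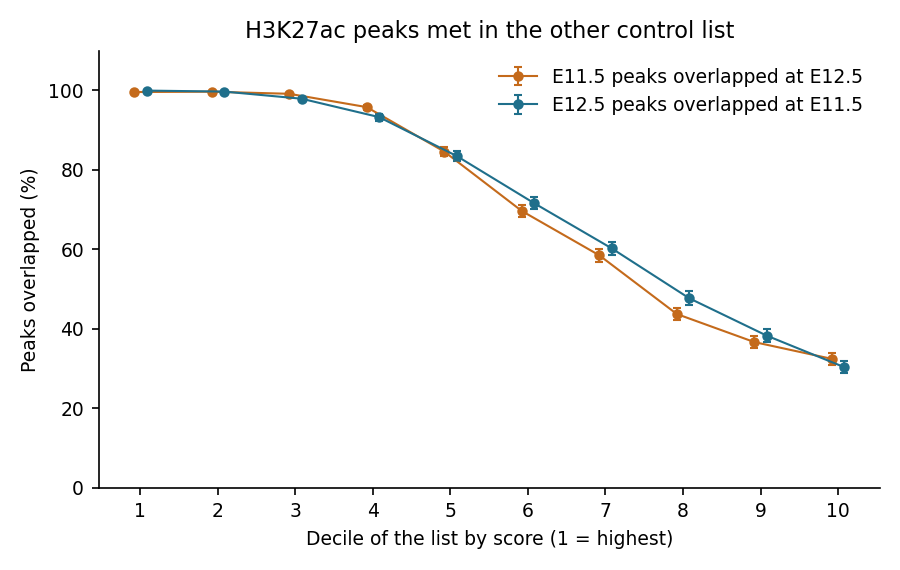
Share of peaks overlapped by any peak of the other control list (y axis, percent) for each decile of a list by score (x axis, 1 is the highest), for E11.5 peaks and for E12.5 peaks, with Wilson 95% intervals as bars. Both curves stay above 90% for the 4 highest deciles and fall to 32.5% and 30.4% in the lowest.

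Sharing by presence did not mean the same order of strength. When the highest 1000 peaks were compared with the highest 1000 of the other list, 69.0% of E11.5 peaks and 67.6% of E12.5 peaks met one another. The shares were 80.9% and 80.0% at 5000 peaks and 84.2% and 82.9% at 10000.

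Merging the equal numbers of peaks gave 40448 regions, of which 22760 held peaks of both lists. Regions of E11.5 alone numbered 7917, or 19.6% of all regions, and those of E12.5 alone 9771, or 24.2%. The 2 kinds of region lay in different places. Of the E12.5-alone regions, 85.9% lay more than 10 kb from the nearest start of a protein-coding gene and 35.5% more than 100 kb away. Of the E11.5-alone regions, 68.9% lay beyond 10 kb and 18.4% beyond 100 kb, against 43.6% and 13.4% of the regions found in both. Within 1 kb of a start lay 13.9% of the E11.5-alone regions, 3.10% of the E12.5-alone regions and 46.8% of the shared ones. Regions of 1 list were weak and narrow in both lists, with median widths of 755 bp (E11.5 alone) and 1136 bp (E12.5 alone) against 2100 bp for shared regions.

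**Figure D2:**
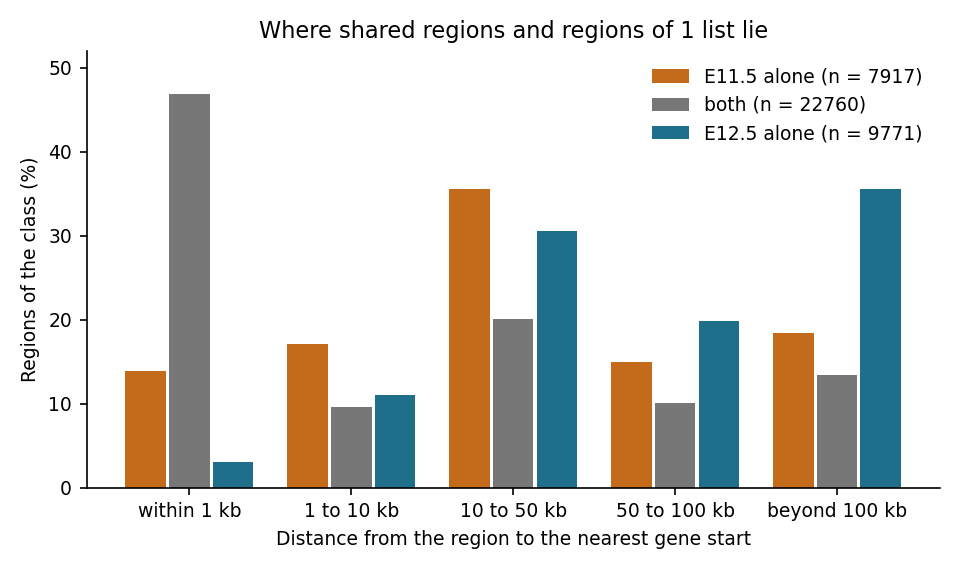
Share of regions in each class (y axis, percent) by distance to the nearest start of a protein-coding gene (x axis, 5 distance classes), for regions of E11.5 alone, of both lists and of E12.5 alone. The bar for E12.5-alone regions is the lowest of the 3 within 1 kb (3.10%) and the highest beyond 100 kb (35.5%).

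The wider mark at E12.5 was also a distal pattern. Of the shared regions, 20781 held 1 peak of each list, and in these the E12.5 peak was a median 1.15 times as wide. The ratio was 1.07 for the 10078 pairs within 1 kb of a start and 1.37 for the 8728 pairs beyond 10 kb. In another 1696 regions a single E12.5 peak spanned several E11.5 peaks, and in 160 a single E11.5 peak spanned several E12.5 peaks. Ranks moved the same way. Measured as a percentile within each list, 59.2% of the distal pairs ranked higher at E12.5, against 30.9% of the pairs at starts. A rise of at least 25 percentile points was seen for 1201 distal pairs and 73 pairs at starts, while falls of that size numbered 605 and 626. Ranks are relative, so a rise of distal peaks in the order is at the same time a fall of the peaks at starts.

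The largest rises in rank were mostly distal. A peak 77.5 kb from the start of Prg4, which encodes lubricin of the joint surface, moved from percentile 3.39 at E11.5 to 86.4 at E12.5 and from 730 to 5265 bp. Peaks near Tut7 (54.6 kb away), Bbox1 (126.8 kb), Mbnl2 (76.8 kb) and Lrtm1 (201.1 kb) rose by 75.1 to 81.5 points. A peak inside Jazf1, a zinc-finger gene, rose from 8.50 to 83.0 and widened from 755 to 8878 bp. Another, 288 kb from Atp5g3, rose from 8.74 to 82.5. It lies in the gene desert on the Hoxd13 side of the HoxD cluster, a desert known for enhancers active in forming digits. Among the 10 largest falls, 5 lay at a gene start, those of Gls2, Galnt2, Cap2, Cbln1 and Slu7, with changes between -60.17 and -62.9 points. The largest fall of all lay 37.2 kb from Csf2ra, at percentile 88.7 at E11.5 and 2.73 at E12.5.

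Over 21775 protein-coding genes, the length under peaks was summed from 20 kb before to 20 kb after the gene body, and 9777 genes had more at E12.5 and 6396 less. A gene was called where the difference was at least 2-fold and at least 2 kb. By that rule 689 genes (3.16%) had more and 187 (0.859%) had less at E12.5. This balance depends on the greater covered length of the E12.5 list. When the lists were trimmed to the same covered length, 230 genes had more and 876 less. When each list was divided by its own total, 288 had more and 406 less, and the median over all genes shifted by -0.36 kb. Division by list totals turns any gain under 1.33-fold into a loss, which among the genes given below holds for Prrx1, Hand2, Tbx4, Pitx1, Sox9, Col2a1, Hoxd13, Hoxa13 and Hoxc11. Pitx1 was also lower at E12.5 with equal covered length.

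The large changes were nearly all gains. Of the genes that differed by at least 20 kb, 55 had more at E12.5 and 1, Tbx5, had less. Dnm3, which encodes a dynamin (chr1:161982450-162478321), had the largest gain, from 133 kb at E11.5 to 288 kb at E12.5. Rad51b, a gene of DNA recombination (chr12:79297282-79848260), went from 50.1 to 169 kb. Creb5 (chr6:53287226-53700364), a transcription factor known for lubricin expression in articular cartilage, went from 23.6 to 119 kb. These are large genes, with many peaks inside the gene body (coordinates in mm10). Dnm3, for example, had no peak within 1 kb of its start in either list.

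Aopep, an aminopeptidase gene, went from 46.1 to 130 kb, and Slc14a2, a urea transporter gene, from 38.5 to 104 kb. Mecom, a zinc-finger transcription factor, went from 77.8 to 133 kb, Jazf1 from 52.5 to 105 kb and Usp29, in the imprinted Peg3 domain, from 42.8 to 94.5 kb. The next were Scfd2, with 45.6 and 93.2 kb, and Hdac9, with 26.0 and 71.3 kb. Hdac9 encodes a histone deacetylase, and its introns are known to hold enhancers of the neighbouring Twist1. Cmss1, next to Filip1l, Lrmda, next to Zfp503, and Erc2, next to Wnt5a, gained between 39.6 and 43.9 kb. Adamtsl1, of a family of secreted matrix proteins, went from 11.9 to 51.1 kb, and Zfp521, a zinc-finger regulator in skeletal cells, from 21.9 to 58.8 kb. The 15 loci were chosen among genes that keep their direction with all peaks and with equal covered length, so those settings are no check of direction. In all 15 the gain also kept its direction with division by the list total and with the 10000 highest peaks alone. Sizes changed more. On those 10000 peaks the gain was 0.54 kb at Lrmda, 14.1 kb at Hdac9, 15.6 kb at Adamtsl1, 20.5 kb at Cmss1 and 21.03 kb at Scfd2. With equal covered length it was 10.95 kb at Lrmda and 22.02 kb at Mecom.

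**Figure D3:**
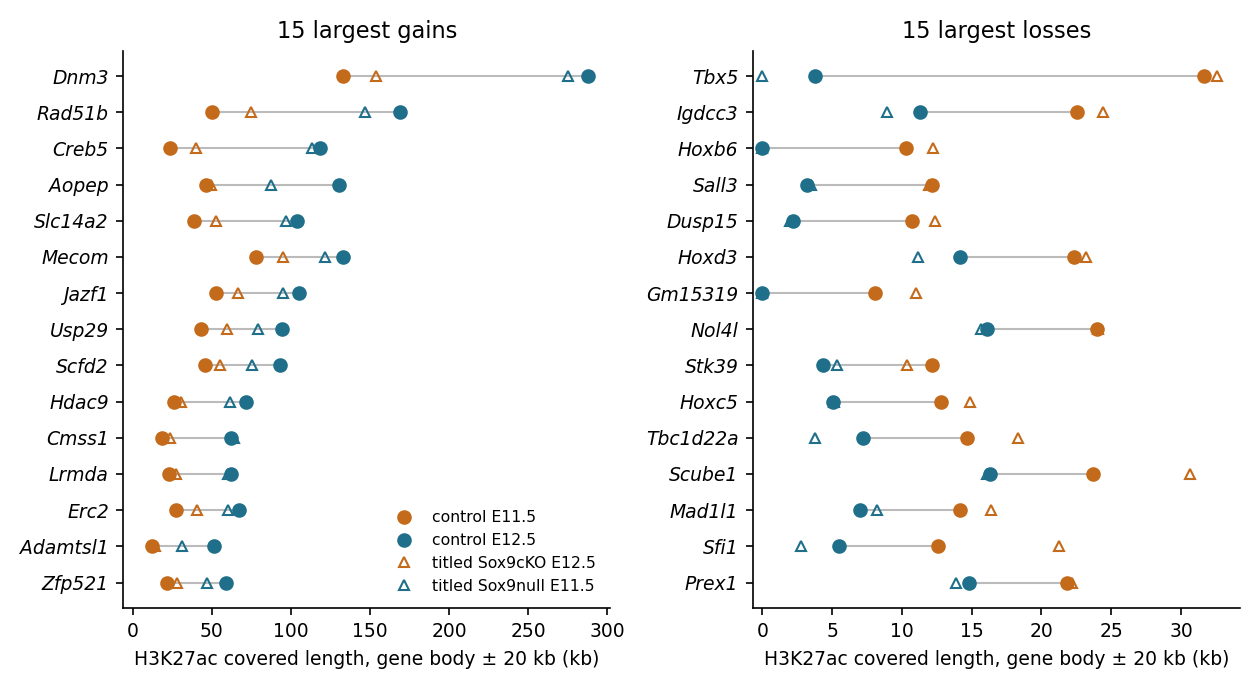
Covered length of H3K27ac peaks from 20 kb before to 20 kb after each gene (x axis, kb) for the 15 loci with the largest gain (left) and the 15 with the largest loss (right) from E11.5 to E12.5. Filled circles are the control lists and open triangles the lists of Sox9-deficient limb buds, named by sample title. Gains run up to 288 kb at Dnm3, and the largest loss is at Tbx5, from 31.7 to 3.76 kb.

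Gains extended over wide stretches, some of them without genes. Of 13621 windows of 100 kb that held a peak, 283 gained at least 10 kb and 5 lost as much. These counts carry the 1.33 times greater covered length of E12.5 and were not repeated with equal covered length. Of the 10 windows with the largest gain, 3 lay in Dnm3 and 3 lay on either side of Gas1, a hedgehog co-receptor gene, between Tut7 and Dapk1, where a window rose from 6.78 to 46.3 kb. Others lay between Ubash3b and Gm40514 (17.5 to 53.9 kb), between Spata18 and Usp46 (16.0 to 51.5 kb), over Cpa5, Cpa1 and Cep41 (40.7 to 75.2 kb), and between Cxcl14 and Slc25a48 (18.0 to 51.4 kb). In the desert beyond Hoxd13, a window between Atp5g3 and Lnpk held 6.65 kb at E11.5 against 35.2 kb at E12.5, a gain outside those 10 windows that was chosen after its value was seen.

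Of the 10 highest-scored E12.5 peaks with no E11.5 counterpart, 2 lay in Creb5, 2 in or next to Aopep and 1 in Nfix. The Creb5 peaks were 8516 and 5237 bp wide, and the second covered a gene start (chr6:53286449-53291685). Others lay 128 kb from Tbx4, 342.9 kb from Tfec and 566.4 kb from Fzd8. In the full lists, the 10000 highest E12.5 peaks included 90 that E11.5 lacked, and 90.0% of these lay beyond 10 kb of a start.

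MicroRNA genes lay in several of the gained regions. Mature microRNAs pair through their seed, bases 2 to 8, with target RNAs. Dnm3 carries on its opposite strand the precursors of miR-199a and miR-214, known from mesenchymal cells, and Wwp2 carries that of miR-140, a microRNA of cartilage. Mature sequences from RefSeq (GRCm38.p6) are shown for some of the precursors in regions that gained or lost coverage, with the seed in capitals.

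miR-199a-5p (chr1:162217844-162217866, plus strand): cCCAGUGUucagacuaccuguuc
miR-199a-3p (chr1:162217883-162217904, plus strand): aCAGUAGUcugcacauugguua
miR-214-3p (chr1:162223438-162223459, plus strand): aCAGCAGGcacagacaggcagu
miR-140-3p (chr8:107551288-107551308, plus strand): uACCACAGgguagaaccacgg
miR-10a-5p (chr11:96317186-96317208, plus strand): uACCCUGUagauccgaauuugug
miR-196a-5p of Mir196a-1 (chr11:96265187-96265208, plus strand): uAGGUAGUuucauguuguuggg

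Mir199a-2 and Mir214 lay in the same peak, which was 9525 bp wide at E11.5 and 23705 bp at E12.5. Within 20 kb of Mir199a-2, coverage was 16.2 kb at E11.5 against 34.1 kb at E12.5. Mir140 lay in no peak at E11.5 and in a peak of 8167 bp at E12.5, with 6.17 and 10.8 kb covered around it. The precursors in Hox clusters differed from one another. Mir10a, beside Hoxb4, had 5.65 kb at E11.5 against none at E12.5, and Mir196a-1, between Hoxb13 and Hoxb9, had 6.70 and 3.19 kb. Mir10b in the HoxD cluster had 7.38 and 2.25 kb and was called less covered, as were Mir10a and Mir196a-1. Mir196b in the HoxA cluster had 39.6 and 40.1 kb, and Mir196a-2 in the HoxC cluster 28.6 and 28.8 kb. Of 1005 precursors matched to the chromosomes, 22 (2.19%) were called more covered at E12.5 and 5 (0.498%) less.

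The losses were led by Tbx5 and by Hox genes of low paralog number. Tbx5, the T-box factor of the fore limb (chr5:119796514-119885220), had 31.7 kb at E11.5 against 3.76 kb at E12.5. It held 2 peaks of 17.4 and 13.3 kb at E11.5, at ranks 140 and 150 of the list, and neither overlapped any E12.5 peak. Tbx4, of the hind limb, had 29.1 kb at E11.5 against 34.4 kb at E12.5, Pitx1 14.8 and 18.3 kb, and Isl1 1.74 and 1.56 kb, none of them called. In the list of 12 fore and hind limb identity genes, 6 had more and 6 less, and Tbx5, Hoxc4 and Hoxc5 were called less (25%, against 0.859% of all genes). Divided by list totals, 11 of the 12 had less. The labels do not give the share of fore and hind limbs in each library. A change with stage and a different mix of limbs therefore cannot be told apart. This holds for Tbx5, for Hoxc4 and Hoxc5 and for the other Hox genes below. In peak lists of whole tissue, fewer acetylated cells and less acetylation per cell cannot be told apart either.

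Of 39 Hox genes, 26 had less at E12.5 and 11 more. Of these, 10 were called less covered (0.859% over all genes) and none more (3.16% over all genes). With the 10000 highest peaks alone, 15 had less and 14 more, 4 of them called less, so the loss rests on weaker peaks. Losses were at low paralog numbers. In HoxB, 7 of 10 genes were called less covered, and Hoxb4, Hoxb5, Hoxb6, Hoxb7 and Hoxb8 went from between 5.65 and 10.3 kb to none. Peaks covered 11.9% of the HoxB span at E11.5 and 3.74% at E12.5. In HoxC, Hoxc4 went from 11.8 to 4.26 kb and Hoxc5 from 12.8 to 5.07 kb, and in HoxD, Hoxd4 went from 10.4 to 4.19 kb.

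Of the 11 genes of paralog number 10 to 13 in HoxA, HoxC and HoxD, 8 had more at E12.5 and 2 less. Hoxa11 had the same, 43.7 kb in each list, and none of the 11 was called. Hoxb13 in HoxB had nothing covered in either list. Hoxd13, which acts in the digits, had 37.0 kb at E11.5 against 43.4 kb at E12.5, Hoxa13 35.1 and 36.3 kb, and Hoxc11 33.2 and 35.7 kb. The 2 with less were Hoxd10, at 46.01 and 41.003 kb, and Hoxd11, at 44.2 and 43.8 kb. Among genes of paralog number 1 to 9, the median difference (E12.5 minus E11.5) was -1.62 kb in HoxA, -8.74 kb in HoxB, -6.90 kb in HoxC and -5.76 kb in HoxD. For paralog numbers 10 to 13 it was 0.53 kb in HoxA, 1.24 kb in HoxC and 0.62 kb in HoxD. Divided by list totals, Hox genes had a median of -8.82 kb, with 38 of 39 lower at E12.5, so the small gains at the high-numbered end do not hold on that scale. Neighbouring Hox genes share flanks, so they are not independent counts. The widest peak of each list lay over HoxA, 53.8 kb at E11.5 against 61.7 kb at E12.5. The next lay over HoxD, 36.3 kb at E11.5 against 53.0 kb at E12.5, and the E12.5 peak also overlapped Evx2 beside Hoxd13. Most of both E12.5 peaks was already covered at E11.5, by 2 peaks over HoxA (60.7 kb) and by 4 over HoxD (46.4 kb).

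**Figure D4:**
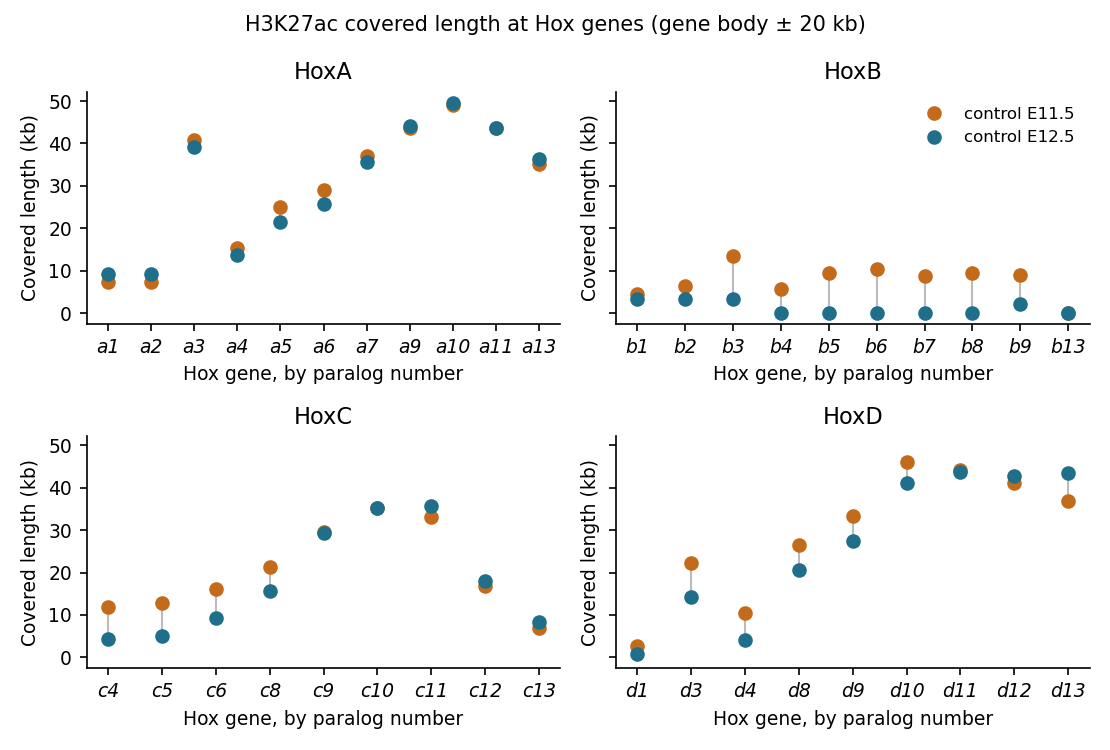
Covered length of H3K27ac peaks at each Hox gene (y axis, kb, within 20 kb of the gene body), ordered by paralog number (x axis) in the 4 clusters, at E11.5 and E12.5. The E12.5 points lie below the E11.5 points at low paralog numbers of HoxB, HoxC and HoxD, and at Hoxd13 the order is the other way, 43.4 against 37.0 kb.

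Outside Tbx5 and the Hox clusters, Igdcc3 had the largest loss. Igdcc3, of an immunoglobulin-domain family, had 22.6 kb at E11.5 against 11.3 kb at E12.5. Sall3, a spalt zinc-finger factor of limb patterning, had 12.2 and 3.19 kb. Dusp15, with its neighbours Foxs1 and Mylk2, had 10.7 and 2.19 kb. Stk39, a kinase gene, had 12.2 and 4.31 kb, Scube1, a secreted signalling protein gene, 23.7 and 16.3 kb, and Prex1, a Rac activator gene, 21.9 and 14.8 kb. With the 10000 highest peaks alone, Hoxc5, Nol4l, Tbc1d22a and Mad1l1 had slightly more at E12.5, and with 100 kb flanks Hoxd3 had slightly more. On those 10000 peaks Hoxb6 and Gm15319 had no difference and Igdcc3 one of -1.25 kb, and Dusp15 fell by 1.11 kb with flanks of 5 kb.

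Matrix genes made up much of the gained side of the chosen lists, which held genes selected with earlier results of these data known. Of 29 tendon and connective tissue genes, 26 had more at E12.5, and 9 (31.0%) were called more covered against 3.16% of all genes. The median difference was 3.48 kb, against 0 kb over all genes, and it stayed above 0 under each scaling tried. Fbn2, a fibrillin gene, had 8.29 kb at E11.5 against 26.3 kb at E12.5, and Kera, which encodes the proteoglycan keratocan, none and 14.8 kb. Col6a3, of microfibril collagen, had 4.76 and 13.2 kb, Col12a1, of a collagen of tendon, 2.87 and 9.47 kb, and Tnc, which encodes tenascin-C, 1.11 and 5.52 kb. Scx, the tendon transcription factor, lay with the members that had less, at 13.7 and 12.4 kb.

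Of 27 cartilage matrix genes, 22 had more, with a median of 1.33 kb, and 7 (25.9%) were called more covered, against 3.16% of all genes. With equal covered length, 15 had more and 10 less, with 5 called more and 1 less and a median of 0.56 kb. Divided by list totals, the split was again 15 and 10, with a median of 0.48 kb. Matn4, a matrilin gene, had 1.90 kb at E11.5 against 6.46 kb at E12.5, and Epyc, of a small proteoglycan of growth cartilage, none and 5.91 kb. Col2a1, the main cartilage collagen gene, had 11.6 and 13.1 kb, and Acan, which encodes aggrecan, had none among the peaks compared. Of 30 chondrogenic regulators, 7 (23.3%) were called more covered and 1 (3.33%) less, against 3.16% and 0.859% of all genes. With equal covered length, 18 regulators had more and 10 less, with 4 called more and 1 less and a median of 1.18 kb. Sox6, a partner of SOX9, had 24.6 and 52.4 kb, Nfib 14.2 and 34.5 kb, and Sox9 itself 7.80 and 8.77 kb. Nkx3-2, a repressor in chondrocyte precursors, had none and 2.15 kb. The regulators' median, 2.66 kb, became -0.35 kb when divided by list totals, near the -0.36 kb of all genes on that scale.

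Lists for signals gave fewer calls. In the limb patterning list, 2 of 40 genes were called more covered, Rarb, a retinoic acid receptor gene (7.72 to 21.8 kb), and Aldh1a2, for retinoic acid synthesis (none to 2.08 kb). Sall3 was called less. That share of gains is near the 3.16% of all genes, and the counts changed with the peaks used, to 1 more and 4 less with equal covered length and 3 more and 7 less with the 10000 highest peaks. In the BMP and joint list, 4 of 28 (14.3%) were called more, against 3.16% of all genes. They were Erg, a transcription factor of joint and endothelium (7.70 to 30.4 kb), Bmpr1b, a BMP receptor (2.71 to 10.3 kb), Gdf10 (3.30 to 9.38 kb) and Nog, a BMP antagonist (2.004 to 5.98 kb). Gdf6, a BMP family ligand, was called less, at 2.31 kb and none (3.57% of the list, against 0.859% of all genes). Divided by list totals, 9 of the 28 had more and 18 less, with 4 called more and 1 less. The list's median on that scale was -0.42 kb, against -0.36 kb over all genes. Fgfr2, an FGF receptor, was the call among 20 growth plate and bone genes, with 10.1 and 29.5 kb, again a share near that of all genes.

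Gene families differed in how many members had more. Of 44 collagen genes, 35 had more at E12.5 and 5 less, with a median of 2.06 kb. With equal covered length the split was 24 more and 16 less, with a median of 0.07 kb. Divided by list totals it was 22 and 18, with a median of 0.16 kb. Of 24 genes of the Adamts group of matrix proteases and relatives, 5 were called more covered, as were 4 of 17 laminins and netrins, 4 of 29 semaphorins and plexins and 2 of 7 Slit and Robo genes, against 3.16% of all genes. With equal covered length the calls were 2 more and 2 less in the Adamts group, 0 and 1 in laminins and netrins, 1 and 3 in semaphorins and plexins, and none in Slit and Robo genes. With all peaks of both lists, 1 laminin or netrin gene was called more covered. Sema3c, a secreted guidance cue, had 1.59 and 16.5 kb, and Robo2, a Slit receptor, 12.3 and 33.1 kb. Divided by list totals, the medians were -0.07 kb in the Adamts group, -0.02 kb in laminins and netrins and -0.67 kb in semaphorins and plexins. Over all genes the median on that scale was -0.36 kb. All 4 Nfi transcription factor genes had more, with a median of 14.6 kb and Nfia at 47.5 and 71.7 kb. With equal covered length all 4 still had more, with a median of 6.06 kb and no call. Divided by list totals, 2 Nfi genes had more and 2 less, with a median of 2.85 kb. Of 80 ribosomal protein genes, 76 had a marked start in both lists, and the median difference was -0.06 kb. Of 22 Eph and ephrin genes, which act in cell contact, 9 had more and 12 less, with a median of -0.39 kb and no call, and of 23 Mmp protease genes 7 had more and 6 less, with no call. Of 83 histone genes, 67 had more and none was called, with a median of 1.61 kb that became -1.91 kb when divided by list totals. Of 1105 olfactory receptor genes, 1051 had no difference.

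Markers of other limb cell types were given the same count. Of 20 endothelial genes, 6 had more and 10 less at E12.5, with sums of 89.9 kb (E11.5) and 124.6 kb (E12.5), and Tie1, of 2.55 kb, at 0 at E12.5. Erg and Ets1 (11.99 and 26.1 kb), both transcription factors, were called more, and Tie1 and Dll4, a Notch ligand (4.64 and 1.45 kb), less. The rise of the endothelial sum came from Erg and Ets1, and Erg is also in the BMP and joint list. Of 20 erythroid and macrophage genes, 3 had more and 12 less, with sums of 60.7 and 62.2 kb and Tal1, called less, at 5.01 kb and 0. Ptprc, of the leukocyte surface, was called more, at 0 and 4.97 kb. Of 30 skeletal muscle genes, 14 had more and 11 less, with sums of 122.8 and 153.1 kb, while Myod1 and Pax7 were at 0 in both lists. Ttn, of the giant muscle protein titin, was called more, at 0 and 2.22 kb, and Lbx1, of migrating muscle precursors, less, at 2.61 kb and 0. Of 21 genes of ectoderm and apical ridge, 12 had more and 5 less, with sums of 52.9 and 60.5 kb, and Sp8, a ridge factor, was called less at 3.93 and 1.11 kb. Cldn6, a claudin gene, was also called less, at 3.89 and 1.55 kb, and Krt18, a keratin gene, more, at 0.52 and 2.67 kb. Of 18 nerve and glia genes, 4 had more and 7 less, with sums of 23.1 and 24.0 kb and no call. The shares called more and less were 10% and 10% of endothelial genes and 5% and 5% of erythroid and macrophage genes. They were 3.33% and 3.33% of muscle genes and 4.76% and 9.52% of ectoderm and ridge genes, against 3.16% and 0.859% of all genes. Each of these list shares rests on 1 or 2 genes. The part of cell mixture in the differences above was not tested.

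With equal numbers of peaks, gene starts changed in the opposite balance to distal regions. A start was taken as marked where a peak lay within 1000 bp. Of the 21775 genes, 11525 were marked in both lists, 978 (4.49%) at E11.5 alone and 236 (1.08%) at E12.5 alone. With equal covered length, starts of 1 list numbered 2129 and 65, in that order. Regions of 1 list then numbered 15791 and 1800, of which 68.5% and 87.4% lay beyond 10 kb. Distal regions of E11.5 alone were thus also the more numerous on that setting. Most of the starts of E11.5 alone were weak there, with a median rank of 22326 among 32821 peaks, against 6011 for starts marked in both. The strongest at E11.5 alone were Tbx5, and Brox and Aida, which share a peak of 3607 bp at rank 772. They were followed by Mylk2, a muscle kinase gene, Adhfe1, Gja3, a connexin gene, Cadm4, a cell adhesion gene, Dipk1c, Tafa5 and Ica1l. Of these 10 genes, 7 had a peak there that met no E12.5 peak, while those at Mylk2, Adhfe1 and Dipk1c did meet one, farther from the start. Starts of these 3 and of Tbx5 were taken from gene ends. Adhfe1 had more covered length at E12.5, 5.06 kb against 3.49 kb.

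The strongest starts of E12.5 alone included genes of matrix and adhesion. Flrt2, a membrane protein of the fibronectin leucine-rich family, was marked at rank 112 of the E12.5 list, and Pxn, which encodes paxillin of focal adhesions, at rank 1405. Col12a1 stood at rank 1754 and Clec11a, which encodes an osteogenic growth factor, at rank 4688. The others of the first 10 were Cpa1, Slc35g3, Tmem253, Dnah2, Igflr1 and Casq1. All 10 of these E12.5 peaks overlapped some peak of the full E11.5 list, though no E11.5 peak came within 1000 bp of the start, except at Cpa1, where a peak below the 32821 highest did. The starts of Pxn and Col12a1 were taken from gene ends. Among starts further down the order, chosen after their values were seen, were those of Kera, Ogn and Aspn, which encode small leucine-rich proteoglycans, and their peaks met no E11.5 peak. Ogn had 0.60 kb around it at E11.5 against 5.07 kb at E12.5, and Aspn 2.13 and 8.77 kb.

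The promoters of these groups differed in CpG content. CpG pairs are rare in the mouse genome outside CpG islands, which cover the promoters of most broadly active genes. RefSeq promoter windows (GRCm38.p6, 250 bases before to 50 after a start, 21262 windows of 17491 genes) were each scored on their own. Windows marked in both lists had a median of 22 CpG, those at E11.5 alone 16, those at E12.5 alone 6, and those in neither 3. A count of 5 CpG or fewer was found in 40.9% of the 242 windows of E12.5 alone, 14.2% of the 946 of E11.5 alone, 5.33% of those in both and 32.3% of all. Windows from both kinds of gene are printed with CpG in capitals, to show that difference in the bases themselves.

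Kera (E12.5 alone; chr10:97606955-97607254, plus strand): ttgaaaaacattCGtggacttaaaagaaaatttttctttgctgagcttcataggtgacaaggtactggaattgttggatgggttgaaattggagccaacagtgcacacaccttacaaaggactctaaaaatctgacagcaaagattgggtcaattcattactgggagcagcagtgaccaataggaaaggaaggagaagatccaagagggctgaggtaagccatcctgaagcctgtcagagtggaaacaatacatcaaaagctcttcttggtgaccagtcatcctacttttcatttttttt
Aspn (E12.5 alone; chr13:49544193-49544492, plus strand): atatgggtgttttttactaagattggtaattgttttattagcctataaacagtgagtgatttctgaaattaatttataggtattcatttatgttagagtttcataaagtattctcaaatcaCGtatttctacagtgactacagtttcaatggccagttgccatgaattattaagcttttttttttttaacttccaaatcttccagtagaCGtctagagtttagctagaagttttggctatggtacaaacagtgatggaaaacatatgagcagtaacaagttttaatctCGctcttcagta
Ogn (E12.5 alone; chr13:49607765-49608064, plus strand): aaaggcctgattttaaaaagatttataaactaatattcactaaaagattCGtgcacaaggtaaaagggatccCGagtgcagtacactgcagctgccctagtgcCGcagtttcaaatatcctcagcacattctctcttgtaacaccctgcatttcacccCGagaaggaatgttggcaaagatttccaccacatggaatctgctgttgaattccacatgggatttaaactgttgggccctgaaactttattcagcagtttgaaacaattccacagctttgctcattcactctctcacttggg
Aida (E11.5 alone; chr1:183296810-183297109, plus strand): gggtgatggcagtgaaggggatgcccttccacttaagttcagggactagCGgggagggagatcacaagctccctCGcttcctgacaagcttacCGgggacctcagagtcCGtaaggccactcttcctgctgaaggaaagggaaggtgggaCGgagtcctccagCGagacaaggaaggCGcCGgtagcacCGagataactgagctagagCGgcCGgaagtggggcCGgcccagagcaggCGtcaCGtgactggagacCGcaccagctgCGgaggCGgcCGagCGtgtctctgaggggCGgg
Cadm4 (E11.5 alone; chr7:24481773-24482072, plus strand): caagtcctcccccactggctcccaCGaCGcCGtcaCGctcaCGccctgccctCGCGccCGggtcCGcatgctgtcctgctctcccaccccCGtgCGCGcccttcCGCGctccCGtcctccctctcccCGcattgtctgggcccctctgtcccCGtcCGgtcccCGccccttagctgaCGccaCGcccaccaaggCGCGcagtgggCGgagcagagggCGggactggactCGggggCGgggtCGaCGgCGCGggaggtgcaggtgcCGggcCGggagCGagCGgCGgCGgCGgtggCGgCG
Tafa5 (E11.5 alone; chr15:87544049-87544348, plus strand): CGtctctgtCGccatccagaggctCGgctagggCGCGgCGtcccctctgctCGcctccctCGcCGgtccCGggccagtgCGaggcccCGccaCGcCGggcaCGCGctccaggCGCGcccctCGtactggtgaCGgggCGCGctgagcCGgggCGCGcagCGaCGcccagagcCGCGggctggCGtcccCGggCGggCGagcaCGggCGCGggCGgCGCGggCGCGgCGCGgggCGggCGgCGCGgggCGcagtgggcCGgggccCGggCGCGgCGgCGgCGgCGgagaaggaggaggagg

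The windows of Kera, Aspn and Ogn hold 1, 3 and 4 CpG and those of Aida, Cadm4 and Tafa5 hold 20, 40 and 56. These 6 were chosen after their values were seen and lie toward the extremes. Kera, Aspn and Ogn are at or below the lower quartile of windows of E12.5 alone, 4 CpG, and Cadm4 and Tafa5 above the upper quartile of those of E11.5 alone, 26. Motifs were searched on both strands as plain letters. The E-box CAGCTG was in 24.4% of the windows of E12.5 alone, 21.1% of those of E11.5 alone, 14.03% of those in both and 15.6% of all windows. The SOX core ACAAAG was in 20.2%, 11.9%, 12.9% and 16.8%, and the ETS motif CCGGAA in 8.26%, 11.7%, 30.02% and 18.7%. The TATA box TATAAA was in 13.2%, 6.55%, 6.17% and 12.6%, and the GC box GGGCGG of SP and KLF factors in 32.6%, 60.7%, 67.7% and 46.2%. Such shares move with base composition, which differs between the groups (median GC 53.3% at E12.5 alone and 61.3% at E11.5 alone), and a match is no evidence of binding.

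**Figure D5:**
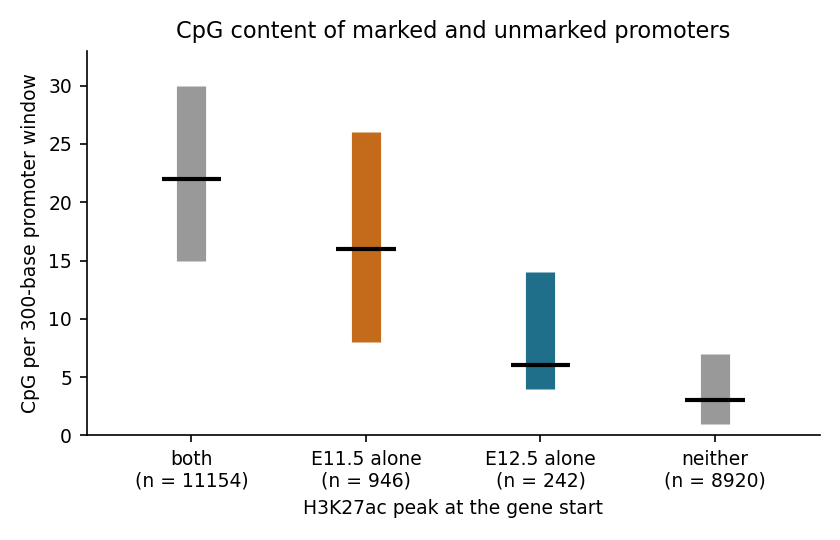
Number of CpG per promoter window of 300 bases (y axis), grouped by whether the start had an H3K27ac peak in both lists, in 1 list alone or in neither (x axis, with the number of windows). Bars run from the lower to the upper quartile and black lines mark the median, which is 22, 16, 6 and 3 from left to right.

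A set of strong E11.5 peaks had no E12.5 counterpart, and most of these lay away from gene starts. Of the 45 peaks among the 10000 highest at E11.5 that met no E12.5 peak, 86.7% lay beyond 10 kb of a start. Apart from Tbx5 and the Brox and Aida peak, the others of the 10 highest lay 101 kb from Esp38, 130 kb from Gm2244, 196 kb from Tcp10c, 332.5 kb from Alkbh8, 24.7 kb from Ly6c2, 36.9 kb from Rpusd4 and 2348 kb from Lrrc4c. The peak near Lrrc4c was 1 of 4 E11.5 peaks, together 4.43 kb, between positions 98662081 and 98667590 of chromosome 2, where E12.5 had none. Whether it and the other peaks far from genes lie in repeats was not examined, so they cannot be read as distal elements. The peak near Alkbh8 stands at the first assembled bases of its chromosome. Ends of mouse chromosomes next to the centromere are rich in repeats. Of peaks within the first 3.2 Mb of a chromosome, E11.5 had 52 and E12.5 had 14, and of peaks on the Y chromosome 15 and 6. The window with the largest loss of all, 27.2 kb to none, was the start of that chromosome.

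The Sox9-deficient lists, which share no sample with the controls, split the same places in the same way. Their sample titles and deposited names disagree, since the list titled Sox9cKO E12.5 is deposited under the name Sox9null E11.5 and the list titled Sox9null E11.5 under the name Sox9cKO E12.5. All 45 of those E11.5 peaks were met in the list titled Sox9cKO and 1 in the list titled Sox9null. Of the 90 strong E12.5 peaks without an E11.5 counterpart, 56 were met in the list titled Sox9cKO and 88 in the list titled Sox9null. The list titled Sox9cKO had 51 peaks in the first 3.2 Mb of chromosomes and 20 on Y, and the list titled Sox9null had 9 and 3. At Tbx5 they had 32.6 kb and none, in that order.

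Gene by gene the pattern was similar. Of the 689 genes called more covered at E12.5, 542 (78.7%) had more in the list titled Sox9null than in that titled Sox9cKO, against 24.5% of all genes. Of the 187 called less, 183 (97.9%) had less, against 50.1% of all genes. All 15 named gains and all 15 named losses followed the same direction. By deposited name, the deficient pair therefore runs from E11.5 to E12.5 as the controls do, and by sample title it runs the opposite way. Stage, and any difference in handling or processing that paired these libraries, cannot be told apart from these lists.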

How the data were processed

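The authors deposited 1 peak list per H3K27ac sample, with a position and a score for each peak, and no header explains the score. Peak names in the lists, per the file contents as deposited, give MACS as the caller. Per the submitters' processing notes mm10 was the build and the tools named are CASAVA 1.8 and deepTools. Not given in the sources used here were the aligner, the use of an input library and the caller's version and settings. Read depth is unknown. Samples were grouped by title.

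Scores only ranked peaks within a list, ties by width. Overlap was 1 bp, over all peaks, and other counts used the 32821 highest-scored peaks of each list. Genes came from a RefSeq table (GRCm38.p6, the same assembly), with 21775 protein-coding genes after 108 entries on scaffolds were left out. Starts came from RefSeq promoter windows for 17491 genes and from both gene ends for 4284. Genes were called at 2-fold and 2 kb. Wilson 95% intervals cover counting error only. Counting was tested on simulated lists. Scripts ran in Python 3.11.15 with matplotlib 3.10.9, scipy 1.17.1, pandas 2.3.3 and numpy 2.4.6.

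The members and gene lists were chosen with earlier results of these data known. Named genes were the 15 largest gains and 15 largest losses (1 per locus), the 10 highest-ranked starts and peaks of 1 list, the 10 largest rank shifts and windows each way, the widest peaks, and from each gene list the 2 largest gains, 2 largest losses and called members. The 15 gains and 15 losses were taken among genes that kept their direction with all peaks and with equal covered length. Where another gene is named the text says that its value was seen first, apart from Sox9, Col2a1, Acan, limb identity, Hox and microRNA genes, limb genes used to check the tissue and marker genes listed at 0. Alternatives were other numbers of top peaks, equal covered length, autosomes alone, other overlap, merging, start, distance, flank and call rules, and division by list totals. Libraries of other marks were not analysed here.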

Additional observations from a re-analysis of the deposited data

How the results depend on the processing

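With 1 library a side no paired analysis was possible because no group has a second sample. Of 90 alternative values of the main counts and shares, 51 stayed within 1.5 times the count or within the 95% interval of the share or median. Keeping the upper 50% of each list, overlaps were 79.4% (E11.5) and 83.8% (E12.5), regions of 1 list 3706 and 2653, their shares beyond 10 kb 46.8% and 84.5%, starts of 1 list 1476 and 138, genes called less 424, and the width ratio 1.12. With the top 10000 peaks these were 84.2% and 82.9%, 1583 and 1712, 16.9% and 76.3%, genes called less 549 and ratio 1.10. With equal covered length, overlaps were 56.2% and 90.9%, regions 15791 and 1800, E12.5-alone regions beyond 10 kb 87.4%, starts 2129 and 65, and genes called 230 more and 876 less. Division by list totals gave 288 and 406. The count of regions and of called genes on each side thus depends on how the lists are made comparable, while E12.5-alone regions were the more distal and starts of E11.5 alone the more numerous under each setting run. Overlap of 50% of the shorter peak gave 70.3% and 71.1%. Shares beyond 10 kb were 70.3% for E11.5 alone with all peaks, and 86.6% for E12.5 alone with gaps up to 1000 bp merged. Beyond 50 kb lay 33.3% and 55.4%. Calls at 1.5 times and 1 kb numbered 1907 more and 910 less, and at 3 times and 4 kb 136 and 21. Autosomes alone, other start windows, other flanks, and leaving out Y and the first 3.2 Mb of each chromosome, chosen after seeing the data, moved no count by over 1.5 times. Among the 30 named genes, the difference reversed with the top 10000 peaks at Nol4l (2.19 kb), Hoxc5 (0.67 kb), Tbc1d22a (0.16 kb) and Mad1l1 (0.56 kb) and with 100 kb flanks at Hoxd3 (0.96 kb). The cause of these changes was not tested.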
